A study of Homo sapiens with 4 samples.

Results

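NRF2, the transcription factor encoded by NFE2L2, was followed at the RNA level together with its relatives and regulators in A549 cells with and without CEBPB knockdown. The set holds 10 genes out of 57820 genes in the deposited table, and each symbol matched 1 row. They were chosen by symbol for their known place in the NRF2 system, with earlier results of these data known. A549 is an established human lung adenocarcinoma line that carries a mutated KEAP1 and in which NRF2 is active. The groups were CEBPB knockdown (1 library with CEBPB siRNA-1 and 1 with CEBPB siRNA-2) and control siRNA (2 libraries). All cells carried the same KEAP1 background, received fresh medium 24 h after transfection and were collected 24 h later. The knockdown libraries differ in reagent as well as in culture, and the labels do not say whether the controls were separate cultures, so p-values measure only the spread between these libraries, which may be technical.

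In cells with normal KEAP1, the adaptor KEAP1 holds NRF2 for ubiquitination by a CUL3 ligase, and oxidants or electrophiles release it. NRF2 then pairs with a small MAF protein (MAFF, MAFG or MAFK) at antioxidant response elements, where BACH1 competes for the same partners and represses. SQSTM1, also called p62, binds KEAP1 and takes it into autophagy, and NFE2L1 and NFE2L3 are relatives of NRF2 that begin as membrane-bound precursors in the endoplasmic reticulum. CEBPB encodes C/EBPβ, a transcription factor of another bZIP family.

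RefSeq promoter windows (GRCh38.p14) were found for 9 of the 10 genes, 18 windows in all, because several genes have more than 1 annotated start. The 250 bases before a start are shown 5′ to 3′ for NFE2L3, the gene with the largest change, and for NFE2L2 and KEAP1, the factor and its adaptor. Capitals mark matches on either strand to TTGCNNAA, a relaxed C/EBP motif, or to TGACNNNGC, the core of an antioxidant response element.
NFE2L3 (chr7:26151948-26152197, plus strand): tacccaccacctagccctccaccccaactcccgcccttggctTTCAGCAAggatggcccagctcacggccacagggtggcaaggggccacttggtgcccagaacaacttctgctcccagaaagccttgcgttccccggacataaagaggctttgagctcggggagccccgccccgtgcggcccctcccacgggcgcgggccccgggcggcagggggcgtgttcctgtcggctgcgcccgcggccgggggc
NFE2L2 (chr2:177264728-177264977, minus strand): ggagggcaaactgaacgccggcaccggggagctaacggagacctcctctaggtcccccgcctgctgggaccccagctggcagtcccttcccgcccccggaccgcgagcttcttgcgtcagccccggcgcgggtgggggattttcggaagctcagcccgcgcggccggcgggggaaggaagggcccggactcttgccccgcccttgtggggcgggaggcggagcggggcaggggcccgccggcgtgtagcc
KEAP1 (chr19:10502772-10503021, minus strand): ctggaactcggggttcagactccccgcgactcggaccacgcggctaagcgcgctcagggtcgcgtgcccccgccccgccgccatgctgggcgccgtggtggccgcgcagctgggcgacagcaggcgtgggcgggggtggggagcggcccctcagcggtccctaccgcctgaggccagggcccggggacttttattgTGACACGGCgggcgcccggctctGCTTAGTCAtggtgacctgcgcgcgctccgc
In the full windows of 300 bases, which add 50 bases after the start, NFE2L3 held the only C/EBP match among the 18, on the minus strand. Such a match occurs in 10.5% of 35116 RefSeq windows. The KEAP1 window shown held 2 matches to the antioxidant response element core and a MAFF window held 1, where 13.3% of all windows hold at least 1. The other KEAP1 window and both NFE2L2 windows held no match to either motif. The palindrome TTGCGCAA, found in 0.151% of all windows, was in none of the 18. TGACTCA, the AP-1 motif, which overlaps the antioxidant core where GC follows, was in 1 BACH1 window and in 4.95% of all windows. These matches describe letters in the windows only; no binding was measured here.

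Levels are given in FPKM, read density along a transcript corrected for length and sequencing depth, so genes can be set side by side. CEBPB itself was at 12.9 FPKM with siRNA-1 and 10.97 FPKM with siRNA-2, against 78.7 and 80.9 FPKM in the controls, a log2 change of -2.65 ± 0.17 (SE, n = 2 libraries per group; limma adjusted p = 0.0167). Without control 1 or control 2 that call was lost (adjusted p = 0.461 and 0.328), at log2 changes of -2.67 and -2.63. Libraries were of similar depth, with the authors' size factors between 0.939 and 1.04. All 5 epithelial markers averaged at least 1 FPKM. Their summed level was 1824 and 2841 FPKM with the siRNAs against 3599 and 5058 FPKM in the controls, and its part in the results below was not tested. KRT8 and KRT18 made up nearly all of that sum. KRT8 was at 1226 and 1467 FPKM with the siRNAs against 1835 and 2517 FPKM in the controls, and KRT18 at 568 and 1351 FPKM against 1739.9 and 2502 FPKM. KRT19 lay the other way, at 5.32 and 7.38 FPKM with the siRNAs against 2.41 and 3.28 FPKM in the controls. CDH1 was at 22.8 and 14.0 FPKM with the siRNAs against 20.2 and 32.1 FPKM in the controls, so its groups overlapped. EPCAM was at 1.77 and 1.03 FPKM with the siRNAs against 1.92 and 3.52 FPKM in the controls. Of 13 leukocyte, endothelial, fibroblast and erythroid markers in the table, 8 were listed at 0 in all 4 libraries. The leukocyte sum, all of it CD68, was 16.8 and 4.69 FPKM with the siRNAs against 7.09 and 9.72 FPKM in the controls. The fibroblast sum was 4.33 and 2.23 FPKM with the siRNAs against 0.734 and 0.592 FPKM in the controls, nearly all from COL1A1. All 4 libraries are of 1 cell line, A549. Bulk RNA cannot tell fewer cells expressing a marker from less RNA per cell.

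With CEBPB siRNA, most of this network was at similar or moderately lower RNA levels than in the controls, and 1 gene was higher by about the same amount with both siRNAs. NFE2L3 averaged 2.18 times its control level. NFE2L2 averaged 0.745 times its control level, KEAP1 0.756 times and SQSTM1 0.591 times, each with both siRNA libraries below both controls. All 10 genes passed the filter of a mean of 1 FPKM. By limma on log2(FPKM + 1), 0 of the 10 passed an adjusted p of 0.05, where 0.235% of 14068 tested genes did. At an unadjusted p below 0.05 there were 3 (NFE2L3, NFE2L2 and SQSTM1), where the share of all tested genes was 12.2%. In the authors' deposited table, which was made from counts, 1 of the 10 passed, NFE2L3, where 4.14% of genes with an adjusted p were called and 2.71% were called higher. At an unadjusted p below 0.05 that table holds 4 of them (NFE2L3, SQSTM1, KEAP1 and MAFK), beside 11.5% of its genes.

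Group separation was more frequent on the lower side. Both siRNA libraries lay below both controls for 6 genes (NFE2L2, KEAP1, SQSTM1, MAFK, MAFG and CUL3), where 21.0% of tested genes did, and above both for NFE2L3, where 23.5% did. The other 3 overlapped (NFE2L1, BACH1 and MAFF). The median log2 change of the 10 genes was -0.18, beside 0.00 over all tested genes. The log2 changes had the same sign in FPKM as in the authors' deposited table for all 10 genes, from the same 4 libraries.

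**Figure D1:**
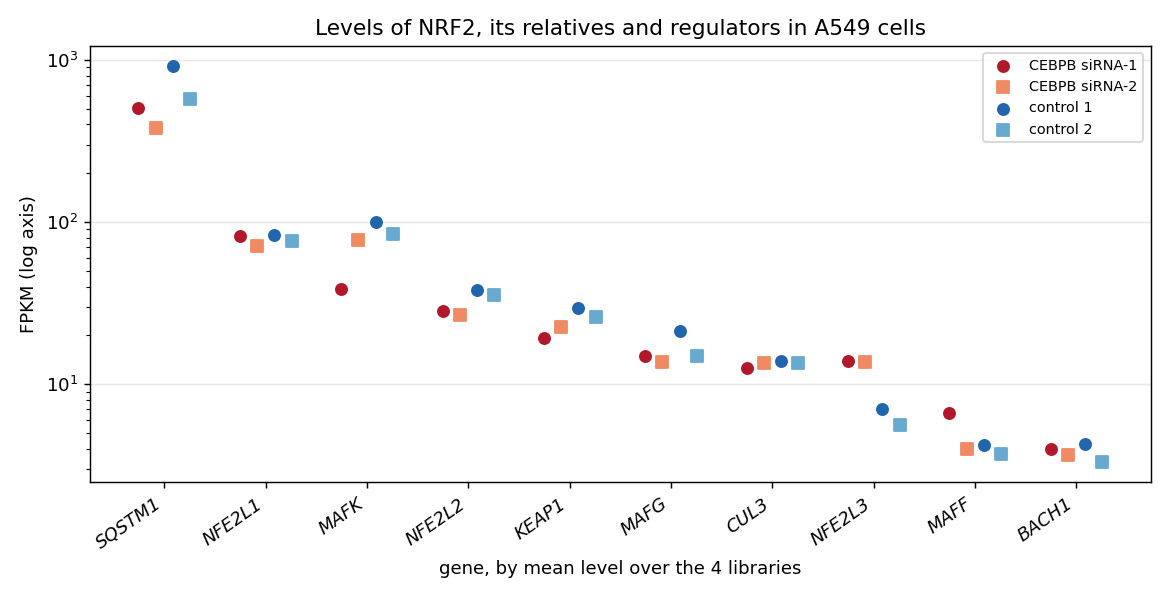
FPKM of each of the 10 genes (log axis) in the siRNA-1, siRNA-2, control 1 and control 2 libraries, 1 point per library, ordered by mean level. SQSTM1 stood highest, between 382 and 919.6 FPKM, and NFE2L3 is the gene whose siRNA points (14.0 and 13.7 FPKM) both lie well above its control points (7.04 and 5.64 FPKM).

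NFE2L2, which encodes NRF2, was at 28.2 FPKM with siRNA-1 and 26.6 FPKM with siRNA-2, against 37.9 and 35.6 FPKM in the controls. The groups did not overlap, and each pair of libraries was close. The means were 27.4 ± 1.11 FPKM with CEBPB siRNA and 36.8 ± 1.62 FPKM in the controls (SD, n = 2 each). The log2 change was -0.41 ± 0.16 (SE; 95% interval -0.80 to -0.02; limma adjusted p = 0.384), and the authors' deposited table gives -0.44 with an adjusted p of 0.504. The authors' mean normalized count for NFE2L2 was 790.3 reads per library.

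NFE2L1, a relative of NRF2 that drives proteasome genes, was the most abundant of the CNC factors (the cap'n'collar bZIP family to which NRF2 and BACH1 belong). It was at 81.4 and 71.6 FPKM with the siRNAs and at 82.9 and 76.3 FPKM in the controls. These groups overlapped, and the log2 change was -0.06 ± 0.16 (95% interval -0.45 to 0.34; limma adjusted p = 0.923). No difference was detectable at this spread.

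NFE2L3, the least studied of the NRF2 relatives and an endoplasmic reticulum-anchored precursor like NFE2L1, was at 14.0 FPKM with siRNA-1 and 13.7 FPKM with siRNA-2. The controls were at 7.04 and 5.64 FPKM. Both siRNA libraries were nearly equal to each other and above both controls. The means were 13.8 ± 0.224 FPKM with CEBPB siRNA and 6.34 ± 0.994 FPKM in the controls (SD, n = 2 each), a log2 change of 1.02 ± 0.19 (95% interval 0.54 to 1.5). In limma the adjusted p was 0.146 over all tested genes. NFE2L3 rose in the authors' deposited table, with a log2 change of 1.13 ± 0.28 (SE) and an adjusted p of 0.0032, from a mean normalized count of 320.8 reads. Over the 4 fits that each left out 1 library, the log2 change lay between 0.88 and 1.16. The adjusted p in limma was 0.0424 without siRNA-2, 0.132 without siRNA-1, 0.823 without control 1 and 0.964 without control 2. In the fit without siRNA-2, 1764 of 14068 genes passed. There the lone siRNA library is assumed to vary as the controls do, whose difference is the only residual spread. The C/EBP-like letters in the NFE2L3 window shown above begin at position -208, counted from its annotated start.

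The share of NFE2L3 in the summed level of NFE2L1, NFE2L2 and NFE2L3 reached 11.3% in the siRNA-1 and 12.2% in the siRNA-2 library, against 5.51% and 4.79% in the controls. The sum itself was 124 and 111.9 FPKM with the siRNAs and 128 and 118 FPKM in the controls. The total thus overlapped between the groups while the share of NFE2L3 did not.

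BACH1, the repressor of heme oxygenase and other antioxidant genes, was the lowest of the 10 on average. It was at 4.004 and 3.65 FPKM with the siRNAs and at 4.27 and 3.29 FPKM in the controls, and both siRNA values lay between the controls. Its log2 change was 0.02 ± 0.22 (95% interval -0.52 to 0.57; limma adjusted p = 0.981).

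**Figure D2:**
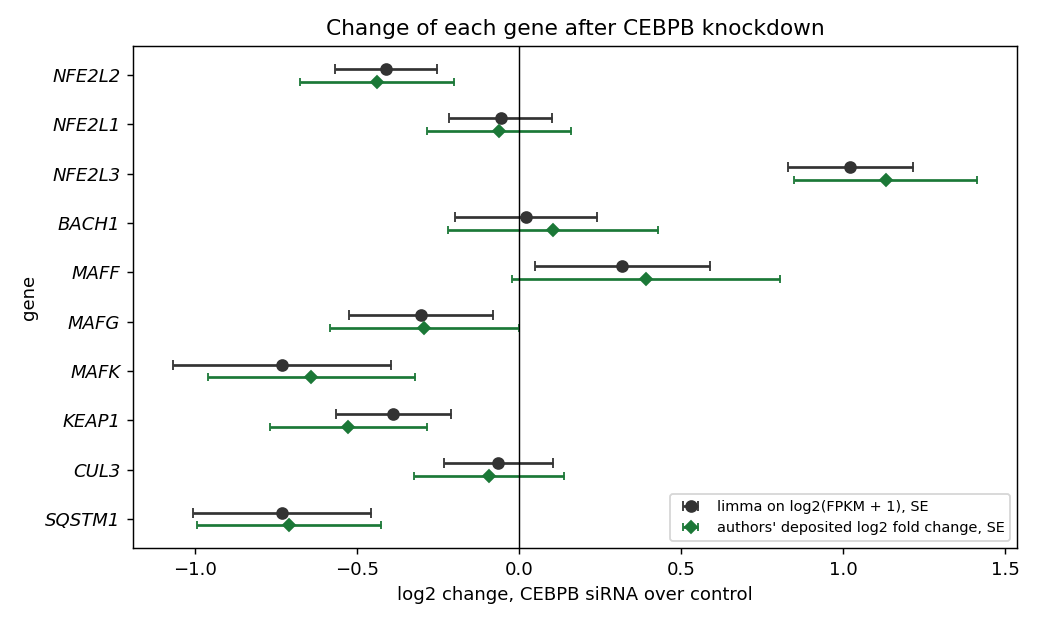
Log2 change of each gene, CEBPB siRNA over control, from limma on log2(FPKM + 1) (circles) and from the authors' deposited table (diamonds), with bars of 1 SE. NFE2L3 lies at 1.02 and 1.13, while NFE2L1, CUL3 and BACH1 lie between -0.09 and 0.10 in both.

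The small MAF proteins lack a transactivation domain of their own and serve as obligate partners of the CNC factors. MAFK was at 38.7 FPKM with siRNA-1 and 77.7 FPKM with siRNA-2, against 99.8 and 84.4 FPKM in the controls. The siRNA-1 library was far below the other 3, while siRNA-2 lay just below control 2. The log2 change was -0.73 ± 0.34 (limma adjusted p = 0.471), and the authors' deposited table gives -0.64 with an adjusted p of 0.411. Without siRNA-1 the log2 change was -0.24 (adjusted p = 0.554), and without siRNA-2 it was -1.23 (adjusted p = 0.0159), in the fit described above that calls 1764 of 14068 genes from the spread of the controls alone.

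MAFG was at 14.9 FPKM with siRNA-1 and 13.7 FPKM with siRNA-2, against 21.3 and 14.9 FPKM in the controls. The groups separated only because control 2 was slightly above siRNA-1. Its log2 change was -0.30 ± 0.22 (limma adjusted p = 0.643), and without control 1 it was -0.06. MAFF, the small MAF known for induction by growth factors and stress, was at 6.65 FPKM with siRNA-1 and 4.003 FPKM with siRNA-2, against 4.24 and 3.70 FPKM in the controls. Only siRNA-1 lay above both controls; siRNA-2 lay between them. The log2 change was 0.32 ± 0.27 (limma adjusted p = 0.694), or 0.62 without siRNA-2 and 0.01 without siRNA-1.

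MAFK supplied most small MAF RNA in every library. The summed FPKM of MAFF, MAFG and MAFK came to 60.2 for siRNA-1 and 95.4 for siRNA-2, against 125 and 103 in the controls. Of this sum MAFK made up 64.3% with siRNA-1 and 81.5% with siRNA-2, against 79.6% and 81.9% in the controls. The siRNA-1 library thus stood apart in both the sum and the makeup.

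KEAP1, the adaptor that targets NRF2 for degradation, was at 19.2 FPKM with siRNA-1 and 22.6 FPKM with siRNA-2, against 29.4 and 25.8 FPKM in the controls. The groups did not overlap. The means were 20.9 ± 2.36 FPKM with CEBPB siRNA and 27.6 ± 2.50 FPKM in the controls (SD, n = 2 each). The log2 change was -0.39 ± 0.18 (95% interval -0.83 to 0.06; limma adjusted p = 0.471), and the authors' deposited table gives -0.53 with an adjusted p of 0.313.

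CUL3, the scaffold of the same ligase, varied least among the 10 genes. It was at 12.6 and 13.4 FPKM with the siRNAs and at 13.8 and 13.5 FPKM in the controls. The siRNA values were lower by a margin that was small beside the SE. The log2 change was -0.06 ± 0.17 (95% interval -0.48 to 0.36; limma adjusted p = 0.918).

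SQSTM1, the autophagy receptor that competes for KEAP1 and is itself an NRF2 target, was the most abundant member, above 99.4% of tested genes in mean FPKM. It was at 502 FPKM with siRNA-1 and 382 FPKM with siRNA-2, against 919.6 and 576 FPKM in the controls. The groups did not overlap, but the controls differed from each other by 0.67 on the log2 scale, more than in 95.6% of tested genes and nearly as much as the groups did. The means were 442 ± 85.1 FPKM with CEBPB siRNA and 748 ± 243 FPKM in the controls (SD, n = 2 each). The log2 change was -0.73 ± 0.27 (95% interval -1.42 to -0.05; limma adjusted p = 0.377), and the authors' deposited table gives -0.71 with an adjusted p of 0.176. It was -0.39 without control 1 and -1.07 without control 2. The authors' mean normalized count for SQSTM1 was 7027 reads.

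Some exons of these genes are shared with other annotated genes, by GENCODE 29 (GRCh38), used here only for neighbours. The libraries were strand-specific, but whether strand was used in counting is not given in the sources used here, so reads of opposite-strand genes may be shared. TMEM184A, on the strand opposite MAFK, covers 18.1% of MAFK exonic bases and was at 4.04 and 8.62 FPKM with the siRNAs against 13.4 and 11.7 FPKM in the controls. C5orf45, opposite SQSTM1, covers 20.7% of its exonic bases and was at 27.4 and 25.9 FPKM with the siRNAs against 36.8 and 24.7 FPKM in the controls. The same-strand gene AC074286.1 covers 17.6% of NFE2L2 exonic bases and was at 2.08 and 0.847 FPKM with the siRNAs against 1.17 and 0.948 FPKM in the controls, far below NFE2L2. AGPS, opposite NFE2L2, covers 0.903% of its exonic bases and was at 12.5 and 12.1 FPKM with the siRNAs against 9.24 and 9.33 FPKM in the controls. For MAFG, the overlapping genes SIRT7 and RP11-498C9.12 cover 2.01% and 4.29% of its exonic bases, and MGAT4B covers 1.37% of those of SQSTM1. SIRT7 was at 19.8 and 15.3 FPKM with the siRNAs against 17.2 and 12.96 FPKM in the controls. RP11-498C9.12 was at 2.85 and 1.37 FPKM with the siRNAs against 1.83 and 2.14 FPKM in the controls. MGAT4B was at 98.8 and 95.8 FPKM with the siRNAs against 116 and 79.7 FPKM in the controls. The part of shared reads in the members' values was not tested.

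By mean level, SQSTM1 led in both groups. With CEBPB siRNA, the order was SQSTM1, NFE2L1, MAFK, NFE2L2, KEAP1, MAFG, NFE2L3, CUL3, MAFF and BACH1. In the controls, MAFK stood above NFE2L1 and CUL3 above NFE2L3, with the other places as in the siRNA libraries. Ranges overlapped for NFE2L1 and MAFK, MAFG and NFE2L3, and MAFF and BACH1 with CEBPB siRNA, and for MAFF and BACH1 in the controls. The other neighbours in either order had separate ranges over 2 libraries.

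Because the encoded proteins can act with or against one another, 4 ratios of FPKM were set for each library. They are ratios of RNA, so they do not give the balance of the proteins, and KEAP1 is mutated in A549. NFE2L3 over NFE2L2 stood at 0.497 in the siRNA-1 library and 0.514 in the siRNA-2 library, against 0.186 and 0.158 in the controls, a log2 difference of 1.56. NFE2L2 over BACH1 was 7.04 and 7.28 with the siRNAs, against 8.89 and 10.8 in the controls, a log2 difference of -0.45. Neither pair of groups overlapped, and the exact two-sided permutation p was 0.333 for each, the smallest that 2 libraries against 2 can give. NFE2L2 over KEAP1 stood at 1.47 for siRNA-1 and 1.18 for siRNA-2, against 1.29 and 1.38 in the controls, so the siRNA values lay on either side of the controls (exact permutation p = 1.0). NFE2L2 over the summed small MAFs stood at 0.468 for siRNA-1 and 0.279 for siRNA-2, against 0.302 and 0.346 in the controls, and it too straddled them (exact permutation p = 1.0). Because 0.333 is the smallest possible exact permutation p, none of the 4 ratios could fall below 0.05, with or without Benjamini-Hochberg adjustment.

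**Figure D3:**
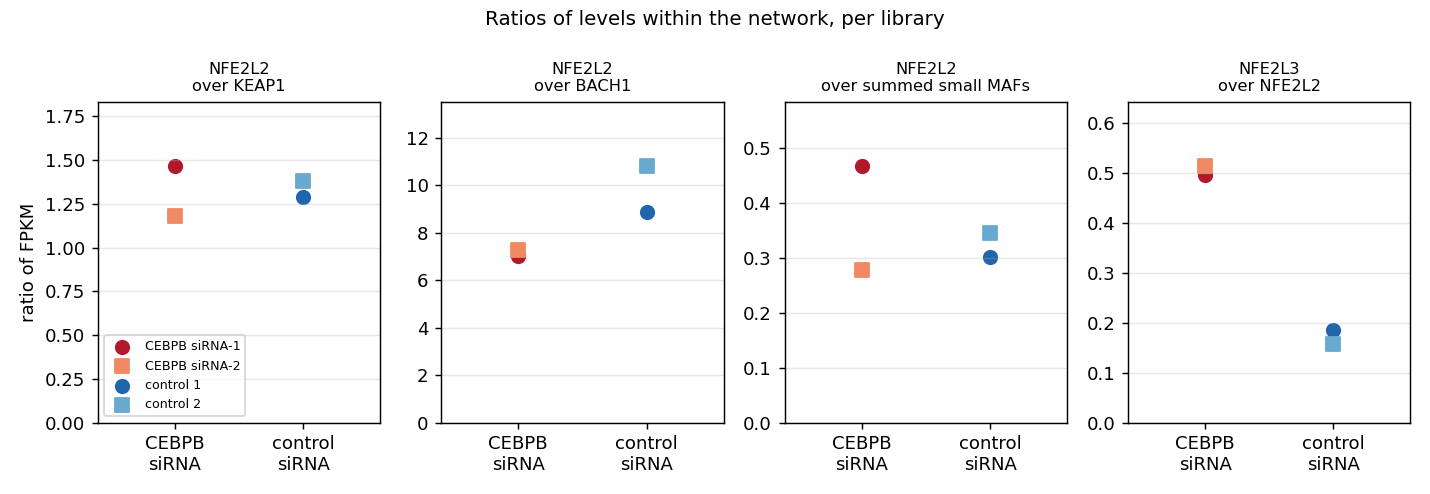
Ratios of FPKM (linear axes from 0) in each library, CEBPB siRNA at the left and control siRNA at the right of each panel. NFE2L3 over NFE2L2 (0.497 and 0.514 against 0.186 and 0.158) and NFE2L2 over BACH1 separate the groups, while the siRNA libraries lie on either side of the controls for NFE2L2 over KEAP1 and over the small MAFs.

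The 2 siRNAs were compared with each other in a fit with 3 groups, where the difference between the controls is the sole measure of spread, taken to hold for the siRNA libraries too. Relative to siRNA-2, siRNA-1 had 16 genes higher and 46 lower (0.441% of tested genes). After median-of-ratios scaling the split was 85 higher and 78 lower, and after upper-quartile scaling 81 and 81. Of the 10 genes 0 passed in limma, and 1 had an unadjusted p below 0.05, where 22.4% of all tested genes did. That gene was MAFK, lower by 0.99 ± 0.18 on the log2 scale with siRNA-1 than with siRNA-2 (95% interval -1.45 to -0.52; adjusted p = 0.0776). With only genes averaging at least 5 FPKM in the fit, MAFK passed (adjusted p = 0.0049), as did 1293 genes in all, against 62 with the lower minimum. MAFF differed the other way, by 0.61 ± 0.24 (95% interval -0.01 to 1.24; adjusted p = 0.229). For NFE2L3 the difference was 0.03 ± 0.24 (95% interval -0.58 to 0.64), and for NFE2L2 it was 0.08 ± 0.16 (-0.34 to 0.49). These intervals do not show that the siRNAs act alike on either gene. For the remaining genes the differences lay between -0.22 (KEAP1) and 0.39 (SQSTM1).

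**Figure D4:**
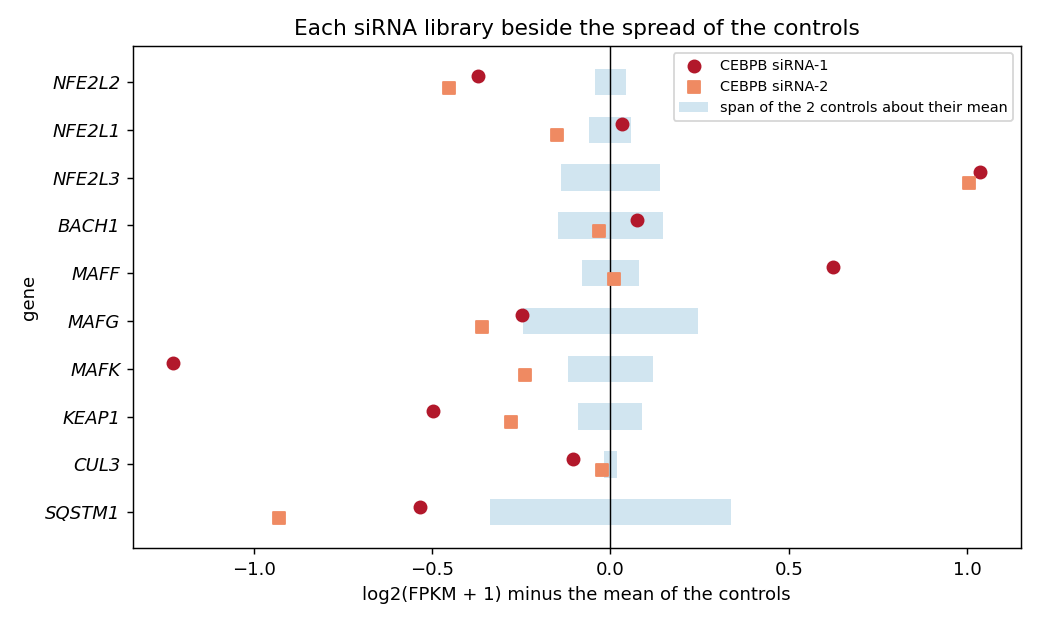
Log2(FPKM + 1) of the siRNA-1 (circles) and siRNA-2 (squares) libraries minus the mean of the controls, which both share, with bars for the span of the controls about that mean. The siRNA points nearly coincide for NFE2L3 (1.04 and 1.01) and lie apart for MAFK (-1.23 and -0.24) and MAFF (0.62 and 0.01).

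The genes most like NFE2L2 and NFE2L3 were taken by the Euclidean distance of log2(FPKM + 1), centred on each gene's mean over the 4 libraries, among 6868 other genes averaging at least 10 FPKM. Nearest to NFE2L2 were COPG1, a coat protein of Golgi vesicles (distance 0.0391), MT-TW, a mitochondrial tRNA (0.0554), and ERLIN2, an endoplasmic reticulum lipid raft protein (0.0581). COPG1 was at 33.8 and 32.3 FPKM with the siRNAs and 47.0 and 44.0 FPKM in the controls. The level of MT-TW is uncertain, because its mean count is 0 in the authors' deposited table. Within a distance of 0.25 of NFE2L2 lay 411 genes. This distance depends on the size of the change, -0.41 for NFE2L2 and 1.02 for NFE2L3 on the log2 scale. Counts within it thus do not compare how common the patterns were. For NFE2L3, 18 genes lay within 0.25. Nearest were CSRP1, a LIM domain protein (0.0787), ERAP1, which trims peptides for class I antigens (0.0818), and DDB2, a DNA damage recognition protein (0.113). CSRP1 was at 115 and 118 FPKM with the siRNAs and 65.9 and 53.9 FPKM in the controls. ERAP1 was at 14.98 and 14.9 FPKM with the siRNAs and 7.39 and 5.65 FPKM in the controls. DDB2 was at 36.9 and 39.5 FPKM with the siRNAs and 20.6 and 17.6 FPKM in the controls. Each of CSRP1, ERAP1 and DDB2 was called higher in the authors' deposited table (log2 changes 0.93, 1.07 and 0.99) and did not pass in limma (adjusted p between 0.123 and 0.136). Because they were picked for likeness to NFE2L3 in these same libraries, such changes follow from the choice and are no separate evidence.

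Other genes of the pathway were taken from 7 lists of 127 genes, all matched in the table, of which 116 passed the filter. Among 15 tested partners of the KEAP1 ligase, 0 rose or fell in limma or in the authors' deposited table, and the median log2 change was 0.01. SESN2, a sestrin that binds KEAP1, had the smallest p (0.70 ± 0.23; limma adjusted p = 0.319). Among 14 genes of other NRF2 turnover, 0 passed in limma. In the authors' deposited table CDKN1A, whose product p21 shields NRF2 from KEAP1, rose (log2 change 1.15, adjusted p = 0.0148), and USP11, a deubiquitinase, fell (-0.75, adjusted p = 0.0484). That is 1 of 15 genes higher and 1 of 15 lower, beside 2.71% and 1.42% of all genes there. CDKN1A was at 42.7 and 25.2 FPKM with the siRNAs and 14.6 and 15.5 FPKM in the controls, a log2 change of 1.08 in FPKM, or 0.71 for siRNA-2 alone. USP11 was at 19.2 and 22.9 FPKM with the siRNAs and 33.4 and 34.7 FPKM in the controls. The median of that list was 0.08.

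Of 16 coactivators and corepressors, 0 passed in limma, and the coactivator NCOA3 fell in the authors' deposited table (-0.74, adjusted p = 0.0283). That is 1 of 16 genes, beside 1.42% of all genes called lower there. NCOA3 was at 40.7 and 55.7 FPKM with the siRNAs and 87.0 and 79.8 FPKM in the controls. The list's median was -0.06. Of 9 tested genes for NFE2L1 and NFE2L3 processing, 0 passed in limma and 0 in the authors' deposited table. The list's median was -0.13. NGLY1, the glycanase that NFE2L1 needs for activation, had the smallest limma p (log2 change -0.50 ± 0.18, limma adjusted p = 0.358). The authors' deposited table gives NGLY1 a log2 change of -0.33 ± 0.31 (SE) with an adjusted p of 0.913. Of 22 partners of SQSTM1 in selective autophagy, 0 passed in limma, and the receptor OPTN rose in the authors' deposited table (1.19, adjusted p = 0.0126). That is 1 of the 21 with an adjusted p there, beside 2.71% of all genes called higher. OPTN was at 62.2 FPKM with siRNA-1 and 32.8 FPKM with siRNA-2, against 23.5 and 18.8 FPKM in the controls. Its log2 change in FPKM was 1.07, or 0.62 for siRNA-2 alone, and the list's median was 0.11.

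Among the 5 tested genes of the list of further CNC relatives and BACH1 turnover, HMOX1 fell in limma and in the authors' deposited table, with a list median of 0.08. HMOX1 encodes heme oxygenase 1, a known target of both NRF2 and BACH1. It was at 23.0 and 26.9 FPKM with the siRNAs and 74.1 and 79.4 FPKM in the controls (log2 change -1.59 ± 0.17; limma adjusted p = 0.0469). HMOX1 also belongs to the list of NRF2 targets. Of 37 tested targets, 0 rose and 3 fell in limma (0.171% of all tested genes were called lower), and 9 fell in the authors' deposited table (1.42% of genes there). Both siRNA libraries lay below both controls for 29 of the 37, beside the 21.0% given above, and the list's median was -0.54. This list, like the others, was chosen with earlier results of these data known, so these shares are no independent test. GPX2, a glutathione peroxidase, was at 79.3 and 86.0 FPKM with the siRNAs and 245 and 277 FPKM in the controls (limma adjusted p = 0.0344). AKR1C1, a steroid and carbonyl reductase, was at 31.5 and 42.6 FPKM with the siRNAs and 151 and 189 FPKM in the controls (limma adjusted p = 0.0376). AKR1C1, AKR1C2 and AKR1C3 are close paralogs whose reads may be shared, so their single levels are uncertain. The authors' deposited table adds OSGIN1 (log2 change -1.57), PGD (-0.94), MGST1 (-1.25), ALDH3A1 (-1.03), AKR1C2 (-2.14) and AKR1C3 (-1.16). ALDH3A1 was at 97.4 FPKM with siRNA-1 and 211 FPKM with siRNA-2, against 293 and 318 FPKM in the controls. Its log2 change in FPKM averaged -1.09 over both siRNAs, with -1.64 for siRNA-1 alone and -0.53 for siRNA-2 alone. The limma calls of HMOX1, GPX2 and AKR1C1 were each lost without control 1 and without control 2. In those fits the difference between the siRNA libraries is the only residual spread. The log2 changes were -1.64, -1.73 and -2.34 without control 1, and -1.54, -1.56 and -2.02 without control 2.

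**Figure D5:**
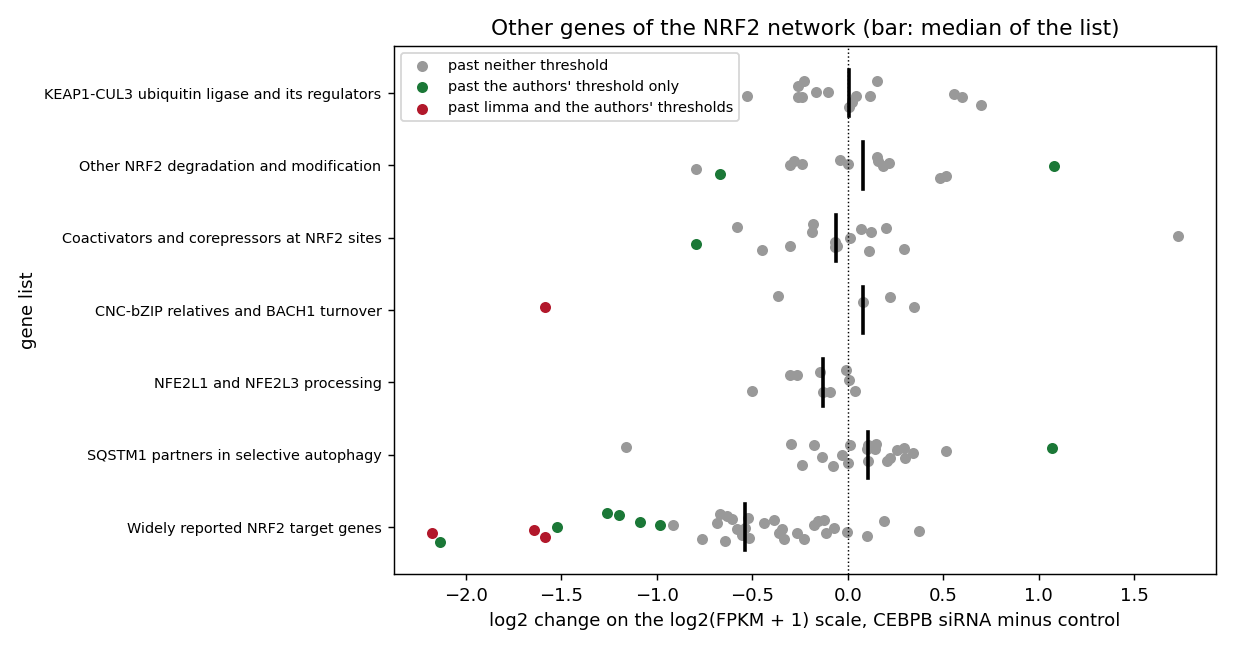
Log2 change on the log2(FPKM + 1) scale (CEBPB siRNA minus control) of each tested gene in the 7 lists, 1 point per gene, with a bar at each list's median. Red points passed in limma and in the authors' deposited table and green points in the authors' table only. The median of the NRF2 targets lies at -0.54, and those of the other lists lie between -0.13 and 0.11.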

How the data were processed

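RNA-seq of A549 cells was analysed in 4 libraries (strand-specific, 76-base single-end reads). Tools named in the submitters' processing notes, without their roles, are DESeq2 1.26.0, HTSeq 0.13.5, STAR 2.7.0d and StringTie 2.1.4, and the build is hg19. The deposited table gives 1 value per gene and library with no unit named; it was taken as the authors' FPKM because the columns sum to unequal totals (494066 to 528606). Per the file headers, the other columns are the authors' DESeq2 results: a mean normalized count (signal), log2 fold change and SE, Wald score, p-value and adjusted p-value. They are quoted as the authors' and were not recomputed. Their fold change is CEBPB siRNA over control, read from its sign. Counts per library were not used here, so no counting intervals are given; the authors' mean counts sum to 8341083 reads. Size factors were read from genes with 1 read in 1 library.

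Limma 3.58.1 (R 4.3.3, intensity trend) was fitted to log2(FPKM + 1) of all 14068 genes averaging at least 1 FPKM, with Benjamini-Hochberg adjustment, a threshold of 0.05 and no block. Log2 changes on this scale understate those of low genes. Residual and prior degrees of freedom were 2 and 3.61 here, and 1 and 3.92 in the 3-group fit. The fits were tested on simulated data with changes larger than that of any member, so this test does not cover effects of the size reported for the members. The members and lists were chosen with earlier results of these data known. Named were all 10 members, CEBPB, list genes past 0.05 in either table (otherwise the smallest p), the 3 nearest genes of NFE2L2 and NFE2L3, and overlapping genes. Alternatives covered pseudocount, filter, scaling, trend, block, grouping and single libraries.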

Additional observations from a re-analysis of the deposited data

How the results depend on the processing

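The count of genes called between CEBPB siRNA and control (33 in limma) was 0 with no filter on low values, where 2438 genes had an unadjusted p below 0.05, and 971 in the 3-group fit. Leaving out 1 library in turn, it lay between 0 (without either control) and 1764 (without siRNA-2). Of the 10 NRF2 network genes, 0 were called in every alternative except the 3-group fit, with 2 (NFE2L3, adjusted p = 0.0366, and MAFK, 0.0418), and the fit without siRNA-2, also with 2. Leaving out 1 library in turn, that count thus lay between 0 and 2.

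The other pathway genes called (3) were counted under settings applied after seeing the data. They were 1 at a pseudocount of 0.1, with upper-quartile scaling and with a replicate block, 0 with no filter or no trend (26 and 27 at an unadjusted p below 0.05), 23 in the 3-group fit, and between 0 and 29 without 1 library. Between the siRNAs, the 62 genes called became 1 at a pseudocount of 0.1, 1915 with no filter, 1293 at a minimum of 5 FPKM, 163 with median-of-ratios and 162 with upper-quartile scaling, and 0 with no trend (2970 unadjusted). Of the 10 genes, 1 (MAFK) was called there at 5 FPKM.

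The sign turned for NFE2L1 (-0.15 to 0.034 over fits without 1 library), BACH1 (-0.13 to 0.17), the siRNA difference of CUL3 (0.0065 with median-of-ratios), and the log2 ratio differences of NFE2L2 over KEAP1 (-0.18 to 0.14) and over the small MAFs (-0.21 to 0.53). Of 128 alternatives for single members, 120 kept direction and call. The cause of these changes was not tested. Deviations of libraries with the same replicate number had a correlation of 0.0754 over 14068 genes. The siRNA libraries also differ in reagent, so this value cannot show whether the libraries were paired. With a replicate block, 25 genes and 0 members were called. No block or fit without a control was possible for the siRNA comparison, since no residual degrees of freedom remain. The intervals given are for single genes and are not adjusted for the number of genes tested, while the calls are. With 2 libraries per group, a difference whose interval excluded 0 could thus go uncalled. This was so for NFE2L3 (interval 0.54 to 1.5; limma adjusted p = 0.146), NFE2L2 (-0.80 to -0.02; 0.384) and SQSTM1 (-1.42 to -0.05; 0.377). The intervals therefore do not give the smallest difference that could be called.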
